A study of Mus musculus with 24 samples.

Results

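The heat shock (HS) response of skeletal muscle was examined in R6/2 mice, a transgenic model of Huntington's disease that expresses exon 1 of the mutant human HTT gene. The members were the 4 libraries of the HS experiment in R6/2 mice among 24 libraries in all: 2 from mice after HS and 2 from mice after the control treatment, each from the quadriceps femoris muscle of 1 mouse. For HS, anaesthetised mice were warmed with a heating pad and kept at 41.5 °C (core temperature) during 15 min, while control R6/2 mice spent 21 min at 36.9 °C under the same anaesthesia. Muscle was taken 4 h later, and the R6/2 mice of both groups were 12 weeks old, on a CBA x C57BL/6 F1 background. Both groups carry the transgene, so the comparison shows what HS did in R6/2 muscle and not what the transgene did. For reference, the same treatments had been given to 2 and 2 wild type mice of 12 weeks and to 2 and 2 Hsf1-/- mice of 10 weeks, which lack the transcription factor HSF1. A further 2 R6/2 mice had received the HSP90 inhibitor NVP-HSP990 (HSP990) at 12 mg/kg and 2 its vehicle, at 12 weeks of age and also 4 h before sampling. RNA-seq counts were available for 18669 genes, of which 13754 had at least 2 counts in at least 10 of the 24 libraries and were tested.

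HS unfolds proteins and releases HSF1 from its chaperones. Active HSF1 binds heat shock elements, inverted repeats of nGAAn units, in front of genes for heat shock proteins (HSPs). The HSPs are chaperones of several families: the HSP70s and their DNAJ (HSP40) partners, which bind and fold unfolded chains; HSP90 and its co-chaperones, which finish the folding of kinases and receptors; small HSPs, which hold unfolded proteins in solution; and the chaperonins CCT and HSP60, which fold proteins within a chamber. In muscle these proteins also serve the assembly and upkeep of the sarcomere. Glucocorticoids, the hormones of bodily stress, act on muscle genes through a receptor that HSP90 holds in its binding state.

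The 2 control libraries held 33704538 and 30387546 counts and the 2 HS libraries 34629910 and 29251097. The unit of level is CPM, in which each count is divided by the total of its library after correction with trimmed means of M values (TMM). The 10 genes that mark skeletal muscle fibres summed to 52283 to 93357 CPM per library, so the tissue label fits its markers. Replicate 1 of the HS group stood apart from the other 3 libraries: its deviations from the mean of all 24 libraries rose with the GC content of the transcript (Spearman's rho of 0.43 across genes, against -0.108 to 0.186 in the other 3). Across 10934 genes the difference between the 2 HS mice correlated with GC content at a rho of 0.547, while within the other 11 groups it lay between -0.32 and 0.0746. Genes are not independent replicates, and these values are descriptions. Effect sizes from fits without 1 of the 4 mice are given for most gene lists and for Hspa1a and Hspa1b.

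**Figure D1:**
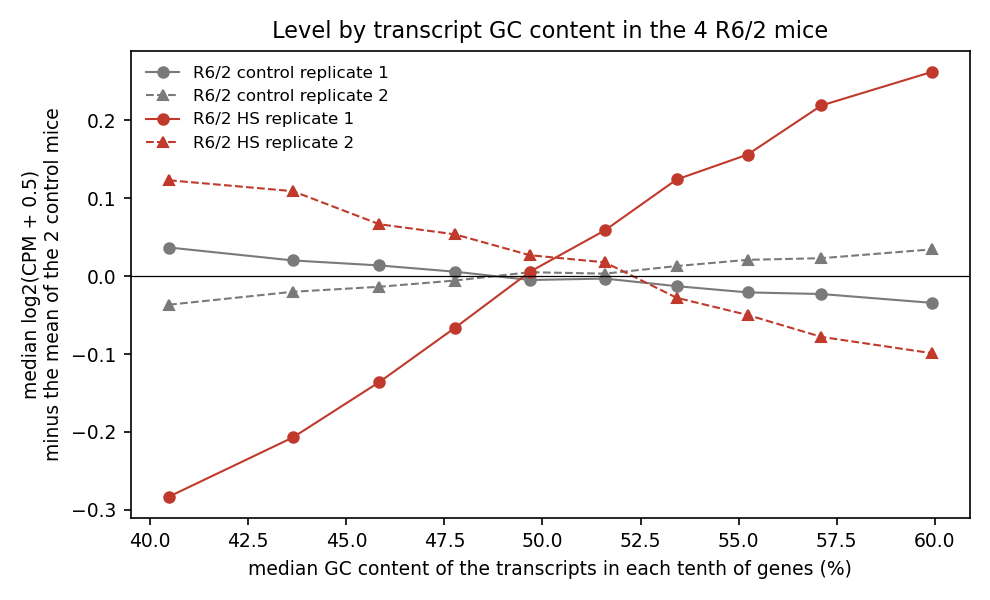
Median difference in log2(CPM + 0.5) from the mean of the 2 control mice (vertical axis) in 10 bins of genes by transcript GC content (horizontal axis, percent), with 1 line per mouse of the R6/2 HS experiment. HS replicate 1 climbs from -0.283 in the bin of lowest GC content to 0.262 in the highest, and HS replicate 2 falls from 0.123 to -0.0989.

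In R6/2 muscle 6 genes rose after HS by edgeR's quasi-likelihood test (Benjamini-Hochberg adjusted p below 0.05), which is 0.0436% of the genes tested, and none was called lower. Other fits called more genes, in both directions: DESeq2 107 higher and 21 lower on all libraries and 93 higher and 22 lower on the 4 libraries compared, and edgeR 56 higher and 5 lower on the HS experiment libraries only. The 6 genes were the inducible HSP70 genes Hspa1a and Hspa1b, the inducible HSP90 gene Hsp90aa1, and Ctla2a, Tinagl1 and Gda, which are not chaperone genes. Without adjustment, p was below 0.05 for 652 genes with a higher level (4.74%) and 465 with a lower level (3.38%), beside a median log2 fold change of 0.0011 over all genes tested. Of the 13754 genes, 2070 had both HS mice above both control mice and 1990 had both below, so a lack of overlap alone is common. With 2 mice against 2 an exact permutation test of 1 gene cannot go below p = 0.333, so a call here borrows its estimate of spread from all 12 groups. The p-values set the change between these mice against the spread within groups over all 24 libraries.

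Hspa1a and Hspa1b encode the stress-induced cytosolic HSP70, and their RefSeq promoters are shown because both genes rose and because they bear on how far the pair can be told apart. Each window runs from 250 bases before to 50 bases after the start in GRCm38.p6, and capitals mark matches to GAANNTTC, in which 2 units of a heat shock element face each other, or TTCNNGAA, in which they point outward. Each pattern is its own reverse complement, so a match reads the same on both strands. Ctla2a and Tinagl1, which rose with them, are shown for comparison.
Hspa1a, chr17:34972107-34972406, minus strand: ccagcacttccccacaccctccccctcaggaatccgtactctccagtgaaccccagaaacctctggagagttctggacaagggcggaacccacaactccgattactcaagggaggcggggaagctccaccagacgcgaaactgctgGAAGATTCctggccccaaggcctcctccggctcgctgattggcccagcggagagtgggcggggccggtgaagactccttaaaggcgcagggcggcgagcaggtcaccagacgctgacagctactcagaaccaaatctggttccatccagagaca
Hspa1b, chr17:34959189-34959488, minus strand: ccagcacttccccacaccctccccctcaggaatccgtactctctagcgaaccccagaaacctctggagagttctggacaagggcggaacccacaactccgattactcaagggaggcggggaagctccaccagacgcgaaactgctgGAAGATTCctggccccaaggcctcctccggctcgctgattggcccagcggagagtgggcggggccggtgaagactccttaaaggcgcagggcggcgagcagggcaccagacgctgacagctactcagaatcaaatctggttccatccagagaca
Ctla2a, chr13:60936576-60936875, minus strand: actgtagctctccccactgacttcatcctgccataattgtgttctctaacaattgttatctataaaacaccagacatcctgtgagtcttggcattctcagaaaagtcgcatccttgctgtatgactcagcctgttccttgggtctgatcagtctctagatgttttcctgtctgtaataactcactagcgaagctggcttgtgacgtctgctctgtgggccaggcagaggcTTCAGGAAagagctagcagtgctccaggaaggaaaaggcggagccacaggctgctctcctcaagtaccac
Tinagl1, chr4:130175073-130175372, minus strand: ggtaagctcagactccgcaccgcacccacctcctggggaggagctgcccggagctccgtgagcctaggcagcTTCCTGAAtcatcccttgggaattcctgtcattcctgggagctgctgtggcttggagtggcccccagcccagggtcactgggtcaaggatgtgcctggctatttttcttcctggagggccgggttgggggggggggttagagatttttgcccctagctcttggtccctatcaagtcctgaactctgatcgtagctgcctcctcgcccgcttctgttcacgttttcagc
The Hspa1a and Hspa1b windows were identical at 296 of 300 positions (98.7%) and each held 1 match of the facing kind, 104 bases before the start. Ctla2a had an outward match 20 bases before the start, in a window that overlaps that of its second start site, and Tinagl1 had an outward one 178 bases before the start in 1 of its 2 windows. Gda had no match, and no RefSeq window was available for Hsp90aa1. Among other chaperone and co-chaperone genes, Dnaja1 had 1 in 1 of 3 windows, Hspb1 2 and Bag3 1. Dnajb4 had 1 in 1 of 2 windows, and Dnajb1 and Serpinh1 had none. Hsph1, Hspe1 and Hspd1 (in 1 of its 2 windows) held matches of 3 alternating units, as did 0.503% of windows of tested genes. The Hsph1 match lay after the start in both of its windows (36 and 15 bases). The windows of Hspe1 and Hspd1 overlap, and their matches are the same stretch read on opposite strands, with 2 overlapping matches of 3 units. A 2-unit match was present in 11.7% of 13913 windows of tested genes and in 15.1% of all 32851 windows, so a match is a description of the sequence and not a binding site.

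Hspa1b (gene 15511, chr17:35093381-35096183 in mm9, minus strand) stood at 8.94 and 2.00 CPM in the 2 control mice and at 124 and 106 CPM in the 2 HS mice. Its mean rose from 5.47 ± 4.91 to 115 ± 12.4 CPM (SD, n = 2), a log2 fold change of 4.39 (SE 0.502, 20.9-fold, adjusted p = 0.00111, edgeR). Both HS mice lay far above both control mice, and the control mice differed from each other by more, in proportion, than the HS mice did. The log2 fold change of Hspa1b was 5.85 without control replicate 1 and 3.69 without control replicate 2. Hspa1a (gene 193740, chr17:35106144-35109069, minus strand) stood at 11.7 and 3.90 CPM in control and 158 and 119 CPM in HS mice. The log2 fold change was 4.15 (SE 0.549, 17.7-fold, adjusted p = 0.00425, edgeR), again with no overlap between the groups and with the higher control level in control replicate 1. Without control replicate 1 the log2 fold change of Hspa1a was 5.15, and without control replicate 2 it was 3.57. The transcripts of this pair are near-identical copies of each other, and how the authors assigned reads that match both is not given in the sources used here, so the split of counts between them is uncertain.

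Hsp90aa1 (gene 15519, chr12:111928815-111940938, minus strand), the stress-inducible form of cytosolic HSP90, stood at 19.8 and 11.2 CPM in control and at 50.003 and 47.7 CPM in HS mice. It rose 3.14-fold (log2 1.65, SE 0.239, adjusted p = 0.0101, edgeR), and the HS mice were close to each other. Near-identical copies of its transcript lie on chromosomes 11 and 3. Hsp90ab1, the constitutive form, stood at 2234 and 1817 CPM in control and 2222 and 2269.9 CPM in HS mice, which overlap (log2 0.15, adjusted p = 0.83).

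Ctla2a (gene 13024, chr13:61035516-61037986, minus strand), which encodes a small inhibitor of cysteine proteases, stood at 1.74 and 2.38 CPM in control and 10.7 and 10.2 CPM in HS mice. It rose 5.08-fold (log2 2.34, SE 0.272, adjusted p = 0.00111, edgeR). Tinagl1 (gene 94242, chr4:129841698-129852366, minus strand), a matrix protein of basement membranes, stood at 54.5 and 39.7 CPM in control and 138 and 110 CPM in HS mice, a 2.64-fold rise (log2 1.40, SE 0.233, adjusted p = 0.0426). For both genes the lower HS mouse was above the higher control mouse. Gda (gene 14544, chr19:21465797-21547935, minus strand), guanine deaminase of purine breakdown, stood at 15.2 and 11.7 CPM in control and 33.1 and 30.4 CPM in HS mice and rose 2.36-fold (log2 1.24, SE 0.21, adjusted p = 0.0426), also without overlap.

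**Figure D2:**
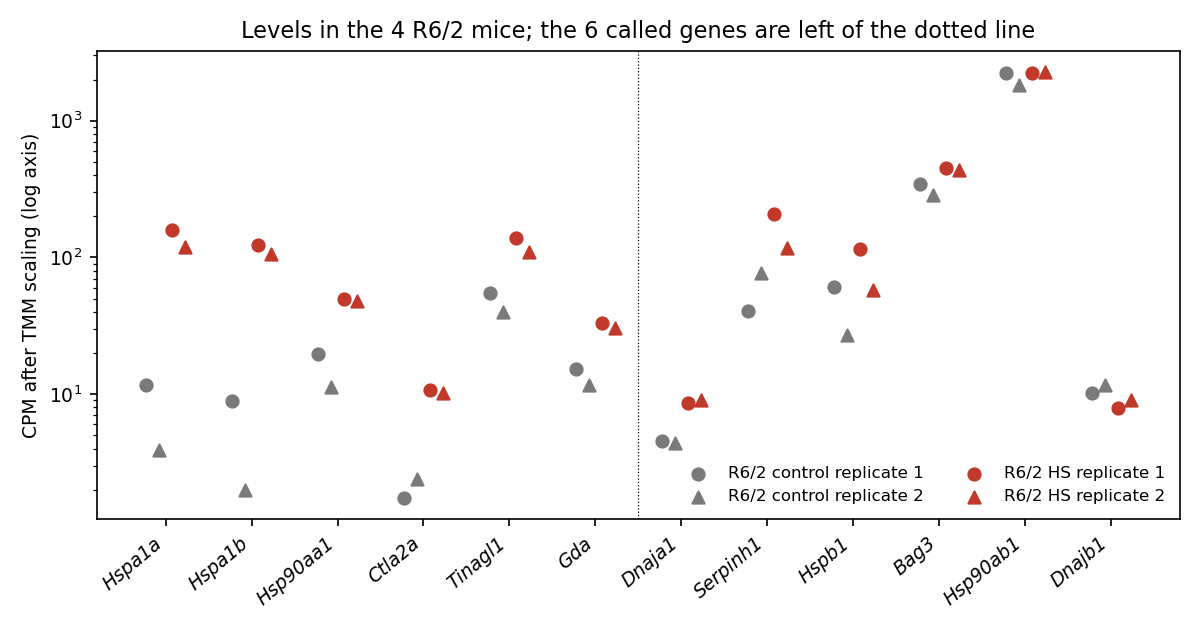
Level (CPM, log axis) of the 6 genes that rose and of HSP genes that did not pass the test, with 1 point per mouse in the R6/2 control and HS groups. The HS points of Hspa1b (124 and 106 CPM) sit far above its control points (8.94 and 2.00 CPM), while the points of Dnajb1 and Hsp90ab1 lie close together.

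The calls were not equally stable. Hspa1b and Ctla2a were called under all 21 alternatives run. Hspa1a lost its call only when control replicate 2 was left out (adjusted p = 0.0697), Hsp90aa1 in 5 alternatives (adjusted p of 0.052 to 0.171), Tinagl1 in 8 and Gda in 7. With a correction for GC content 8 genes were called, the 6 above and Dnaja1 and Irf8 (both adjusted p = 0.0249). Leaving out HS replicate 2 raised the number to 500 genes, 225 higher with a median GC content of 56.1% and 275 lower with 43.7%, against 50.7% over all genes tested; leaving out HS replicate 1 gave 3.

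**Figure D3:**
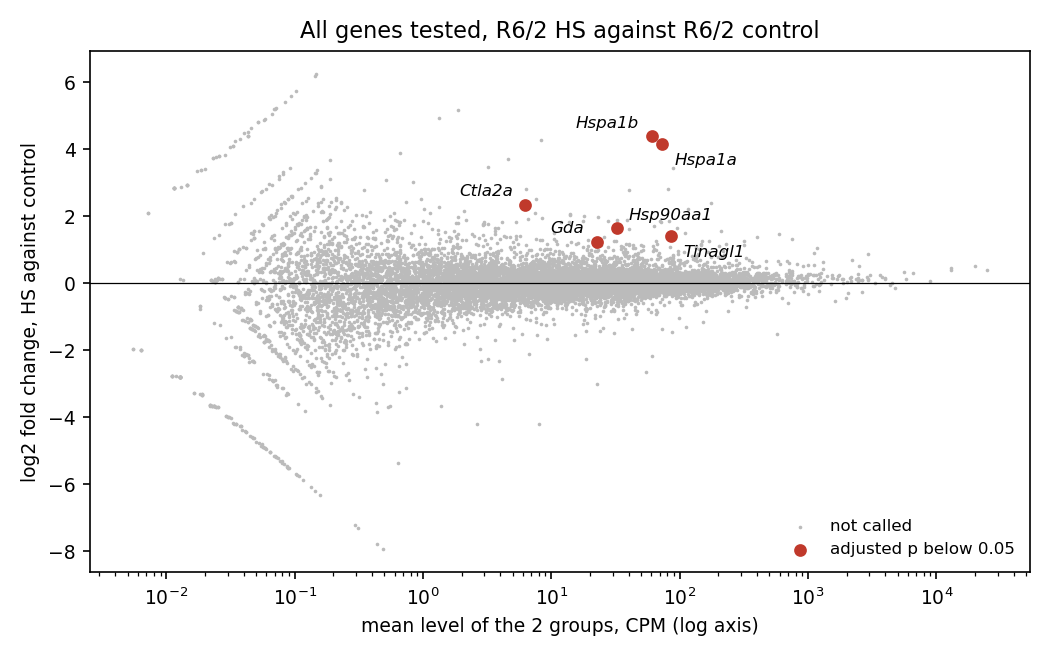
Log2 fold change, HS minus control, of each gene tested (vertical axis) against the mean of its control and HS levels (horizontal axis, CPM on a log axis), with the 6 called genes named and genes at 0 in all 4 mice left out. The cloud is centred near 0 (median 0.0011), and Hspa1b and Hspa1a stand apart at 4.39 and 4.15.

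Genes just above the threshold included further known heat shock genes. Dnaja1, a DNAJ partner of HSP70, stood at 4.51 and 4.38 CPM in control and 8.68 and 9.02 CPM in HS mice (log2 0.99, SE 0.178, adjusted p = 0.0534, edgeR). The groups did not overlap, but the gene Smu1 overlaps it on the opposite strand. Serpinh1, the collagen chaperone HSP47, stood at 40.3 and 76.4 CPM in control and 209 and 118 CPM in HS mice (log2 1.49, adjusted p = 0.0534), with a wide spread in both groups. Irf8, a transcription factor of myeloid cells, stood at 5.99 and 6.00 CPM in control and 18.5 and 11.5 CPM in HS mice (log2 1.33, adjusted p = 0.0534). Sh2b3, an adaptor that restrains cytokine signalling, stood at 28.8 and 26.6 CPM in control and 50.7 and 46.9 CPM in HS mice (log2 0.82, adjusted p = 0.0534). Mgat4a, a glycosyltransferase, stood at 9.76 and 9.32 CPM in control and 22.8 and 20.1 CPM in HS mice (log2 1.17, adjusted p = 0.0618). In each of these 5 genes both HS mice were above both control mice, which was a condition for naming genes by smallest p. Of the 21 alternatives 9 called Irf8, 7 Dnaja1, 7 Serpinh1, 6 Mgat4a and 5 Sh2b3.

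Among genes with lower levels the smallest p belonged to Chtf8, a subunit of a clamp loader of DNA replication. It stood at 42.8 and 35.8 CPM in control and 20.03 and 23.9 CPM in HS mice (log2 -0.84, adjusted p = 0.0534). Stum stood at 6.54 and 8.00 CPM in control and 1.60 and 0.373 CPM in HS mice (log2 -2.85, adjusted p = 0.141), and Cd248, a surface protein of pericytes and fibroblasts, at 9.95 and 15.5 against 6.30 and 4.42 CPM (log2 -1.24, adjusted p = 0.141). Groups did not overlap in these 3 genes, which was a condition for naming them, and none passed the edgeR test. DESeq2 on all libraries called all 3 lower (adjusted p of 0.000402 for Chtf8, 0.00167 for Stum and 0.0040 for Cd248), and of the 21 alternatives 6 called Chtf8, 2 Stum and 2 Cd248.

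The rest of the chaperone families showed smaller values. The 14 HSP70 family genes tested had a median log2 fold change of 0.33 (0.30 to 0.33 without 1 mouse). Of the 14, 11 had a higher level after HS, 4 at an unadjusted p below 0.05 (28.6%, against 4.74% of all genes). Besides the called pair, these were Hspa12b (23.6 and 26.4 CPM in control, 61.9 and 33.9 in HS mice, log2 0.94, adjusted p = 0.167) and Hspa5, the HSP70 of the endoplasmic reticulum (99.2 and 100.01 against 131 and 154 CPM, log2 0.52, adjusted p = 0.246). Hspa8, the constitutive HSP70, ranged from 49.4 to 119 CPM in control and from 171 to 195 CPM in HS mice (log2 1.12, SE 0.811, adjusted p = 0.77). Its SE shows how much that gene varied between mice of a group across the series, and near-identical copies of its transcript exist.

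Of 18 genes for HSP90 and its co-chaperones 15 had a higher level, 5 at an unadjusted p below 0.05 (27.8%, against 4.74% of all genes). The median log2 fold change was 0.18 (0.14 to 0.26 without 1 mouse). After Hsp90aa1 the smallest p belonged to Ahsa1, which stimulates the ATPase of HSP90 (107 and 111 CPM in control, 145 and 139 in HS mice, log2 0.38, adjusted p = 0.24), and Unc45b, which folds myosin with HSP90 (390 and 413 against 630 and 461 CPM, log2 0.44, adjusted p = 0.246). In both the HS mice were above the control mice.

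Of 12 DNAJ A and B genes 7 were higher and 5 lower, with a median of 0.02. An unadjusted p below 0.05 was found for 1, Dnaja1 (8.33%, against 4.74% of all genes). Dnajb1, a main HSF1 target in other settings, stood at 10.2 and 11.6 CPM in control and 7.88 and 9.02 CPM in HS mice, lower in both (log2 -0.37, SE 0.302, adjusted p = 0.813). The median of this list was sensitive to the mice used, at 0.21 without HS replicate 1 and -0.20 without HS replicate 2. Of 11 small HSPs and BAG factors 2 were higher and 9 lower, with a median of -0.05 (-0.24 to 0.033 without 1 mouse). Hspb1 (HSP25) stood at 60.3 and 27.2 CPM in control and 114 and 58.1 CPM in HS mice, which overlap (log2 0.98, SE 0.391, adjusted p = 0.484). Bag3, a co-chaperone of muscle autophagy, stood at 342 and 286 CPM in control and 450 and 433 CPM in HS mice, without overlap (log2 0.49, adjusted p = 0.381). These were the 2 genes of the list that were higher.

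The 8 CCT genes had a median of 0.08 (0.020 to 0.17 without 1 mouse) and the 12 mitochondrial chaperones and proteases one of 0.09 (-0.019 to 0.15). At an unadjusted p below 0.05, 2 CCT genes (25%) and 1 mitochondrial gene (8.33%) were higher, against 4.74% of all genes. Hspe1, which closes the mitochondrial chaperonin chamber, stood at 17.4 and 18.5 CPM in control and 29.2 and 22.0 CPM in HS mice (log2 0.52, adjusted p = 0.423). The 20 genes of the endoplasmic reticulum chaperones and unfolded protein response had a median of 0.05 (-0.16 to 0.17 without 1 mouse). Of these, 1 (Hspa5, 5%, near the 4.74% of all genes) had an unadjusted p below 0.05. None of the 4 heat shock factor genes did so, and Hsf1 itself stood at 50.2 and 47.3 CPM in control and 53.7 and 47.2 CPM in HS mice (log2 0.05, adjusted p = 0.954). In the HS experiment Hsf1 was at 60.8 to 68.5 CPM in wild type and at 23.1 to 29.0 CPM in Hsf1-/- mice, and counts over the whole gene do not show the state of the deleted allele.

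Of 23 targets of the glucocorticoid receptor tested, 21 had a higher level, 12 at an unadjusted p below 0.05 (52.2%), and the median log2 fold change was 0.92. None passed adjustment with edgeR. DESeq2 called 5 higher on all libraries, among them Sgk1, Klf15, Mt1 and Mt2 (adjusted p of 0.0058, 0.024, 0.0246 and 0.0398), and 5 higher on the libraries compared. In these fits it called 107 and 93 of all genes higher. Sgk1, a kinase of ion transport and insulin signalling, stood at 34.7 and 42.2 CPM in control and 105 and 79.8 CPM in HS mice (log2 1.26, adjusted p = 0.159). Klf15, a regulator of amino acid and lipid use, stood at 138 and 91.3 CPM in control and 221 CPM in both HS mice (log2 0.94, adjusted p = 0.186). Mt1 and Mt2, metallothioneins that bind zinc, stood at 27.5 and 12.9, and at 22.9 and 6.81 CPM in control. In HS mice they stood at 193 and 88.9, and at 204 and 121 CPM (log2 2.80 and 3.45, adjusted p of 0.177 and 0.219). In all 4 genes both HS mice were above both control mice, as in 19 of the 23 listed and in 2070 of all 13754 genes tested. The control mice differed on this list: its genes summed to 6340 CPM in control replicate 1 and 2733 CPM in control replicate 2, against 7738 and 8409 CPM in HS mice. The median log2 fold change was 1.67 without control replicate 1 and 0.58 without control replicate 2, so it stayed above 0.

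Genes of muscle atrophy held 4 of 16 members at an unadjusted p below 0.05 (25%), all higher, with a median of 0.09. That median was 0.34 without control replicate 1, -0.028 without control replicate 2, 0.22 without HS replicate 1 and 0.18 without HS replicate 2. DESeq2 called 1 of these genes higher on all libraries and 2 on the libraries compared, beside 107 and 93 of all genes. Trim63, the ubiquitin ligase MuRF1, stood at 557 and 302 CPM in control and 959 and 1165 CPM in HS mice (log2 1.30, adjusted p = 0.205), and Foxo1, which drives it in wasting muscle, at 25.04 and 14.8 against 70.7 and 51.9 CPM (log2 1.62, adjusted p = 0.319). Of 25 immediate early genes 8 were higher and 1 lower at an unadjusted p below 0.05 (32% and 4%, against 4.74% and 3.38% of all genes). Their median was 0.37 (0.23 without control replicate 2, at most 0.46 without another mouse). DESeq2 called 2 of them higher on all libraries (107 of all genes), and 5 higher and 1 lower on the libraries compared (93 and 22 of all genes). Maff, a small MAF transcription factor, stood at 9.71 and 4.51 CPM in control and 25.3 and 32.3 CPM in HS mice (log2 2.01, adjusted p = 0.158), and the orphan receptor gene Nr4a3 at 7.38 and 3.62 against 16.5 and 28.6 CPM (log2 2.03, adjusted p = 0.222).

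Genes of cytokine signalling and NF-kB feedback had 11 of 27 members at an unadjusted p below 0.05 (40.7%), all higher, and a median of 0.46. Il4ra, the receptor chain for interleukins 4 and 13, stood at 17.1 and 10.6 CPM in control and 63.6 and 39.2 CPM in HS mice (log2 1.89, SE 0.382, adjusted p = 0.101). Osmr, the oncostatin M receptor, stood at 17.0 and 13.1 CPM in control and 34.2 and 32.8 CPM in HS mice (log2 1.15, adjusted p = 0.172). The list's median was 0.15 without HS replicate 1 and 0.74 without HS replicate 2. DESeq2 called 3 members higher on all libraries and 5 on the libraries compared, beside 107 and 93 of all genes.

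Of 20 genes of vascular tone and nitric oxide 7 were higher and 2 lower at an unadjusted p below 0.05 (35% and 10%, against 4.74% and 3.38% of all genes). Their median was 0.33, which was 0.17 without HS replicate 1 and 0.17 without control replicate 1. In the edgeR test 1 was called (Ctla2a). Ctla2a is the protease inhibitor gene described above, and the list was chosen with earlier results of these data known. Its call is therefore no independent result for the list. DESeq2 called 5 genes of the list higher on all libraries and 4 on the libraries compared, with Ctla2a among them each time, beside 107 and 93 of all genes. Nos3, the endothelial nitric oxide synthase, stood at 17.4 and 20.1 CPM in control and 58.9 and 31.3 CPM in HS mice (log2 1.27, adjusted p = 0.12), and Atg9b overlaps it on the opposite strand. Adm, the vasodilator adrenomedullin, stood at 3.99 and 2.56 against 7.46 and 6.38 CPM (log2 1.08, adjusted p = 0.172). The 12 endothelial markers summed to 578 and 582 CPM in control and 914 and 629 CPM in HS mice, with a median of 0.36 that was 0.12 without HS replicate 1 and 0.63 without HS replicate 2. They did not move together: 10 were higher and 2 lower, 4 and 2 of them at an unadjusted p below 0.05 (33.3% and 16.7%, against 4.74% and 3.38% of all genes). In the 2 lower markers both HS mice were below both control mice. Their part in the vascular values was not tested, and in bulk muscle more cells of a type and more RNA per cell cannot be told apart.

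Collagens and matrix genes had a higher level for 31 of 34, 11 of them at an unadjusted p below 0.05 (32.4%), with a median of 0.39. That median was 0.03 without HS replicate 1, 0.06 without control replicate 1, 0.66 without HS replicate 2 and 0.80 without control replicate 2, so its size depended on which mice were used. Lox, which cross-links collagen, stood at 31.1 and 22.1 CPM in control and 50.2 and 48.8 CPM in HS mice (log2 0.89, adjusted p = 0.214), with the HS mice close to each other. The 6 tendon markers summed to 306 and 243 CPM in control and 550 and 387 CPM in HS mice, and the 8 fibroblast markers to 2105 and 2009 against 2382 and 1500 CPM; their part in the matrix values was not tested.

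Sarcomere genes of slow fibres had lower levels after HS for 11 of 12, with a median of -1.16, and none had an unadjusted p below 0.05 with edgeR. Myh7, the slow myosin heavy chain, stood at 32.9 and 47.5 CPM in control and 2.13 and 7.87 CPM in HS mice (log2 -3.02, SE 1.58, adjusted p = 0.651). The large SE reflects how much this gene varied between mice of a group in the series. DESeq2 on the 4 libraries compared, whose spread is not shared with the other groups, called Myh7 (adjusted p = 2.2e-08), Tnnc1 (0.00028) and Tnni1 (0.0157) lower, and DESeq2 on all libraries called 0 of the list. The list's median ranged from -1.48 without HS replicate 2 to -0.40 without control replicate 2, and was -1.32 in Hsf1-/- and -0.28 in wild type mice after HS. Fast fibre genes had a median of 0.16, with 2 of 18 higher at an unadjusted p below 0.05 (11.1%, against 4.74% of all genes). That median changed sign with the mice used, at 0.39 without HS replicate 1, -0.0050 without HS replicate 2, -0.022 without control replicate 1 and 0.47 without control replicate 2. Respiratory chain subunits had a median of 0.12, which was 0.016 without control replicate 1 and 0.26 without control replicate 2.

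**Figure D4:**
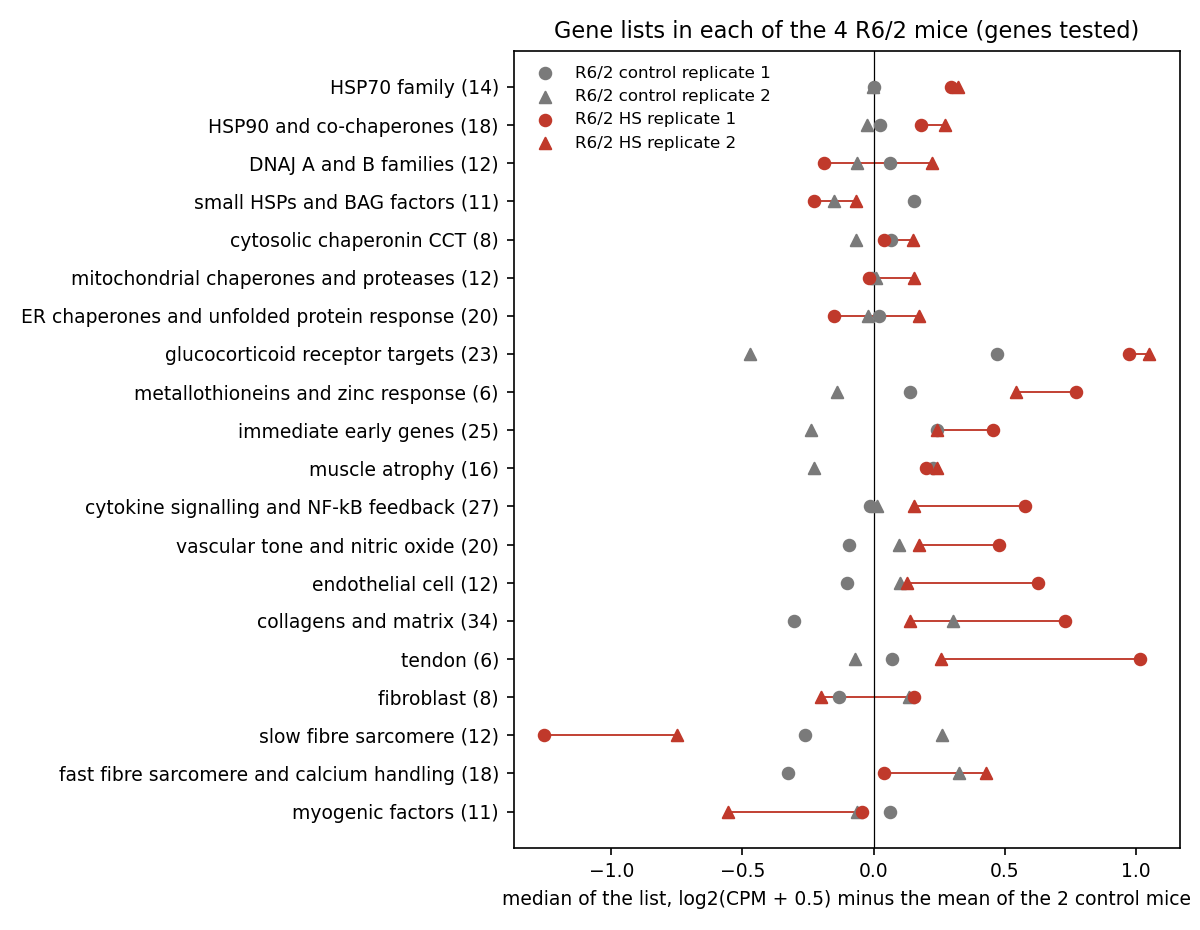
Median difference in log2(CPM + 0.5) from the mean of the 2 control mice (horizontal axis) over the tested genes of each list (vertical axis), with 1 point per R6/2 mouse. For glucocorticoid receptor targets the 2 control points lie at 0.47 and -0.47, and for slow fibre genes both HS points lie below 0.

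The response was then set beside that of wild type mice, whose HS and control groups are separate mice, to ask which genes responded differently in R6/2 muscle. The test of the difference called 10 genes (0.0727%), all with the lower fold change in R6/2 mice, and 6 of them belong to the HSP90, HSP70, DNAJ and BAG lists. The number depended on the fit, with 0 called when only the groups compared were used and 33 with either DESeq2 fit. For Hsp90aa1, wild type mice went from 10.3 and 11.2 CPM to 156 and 164 CPM, a log2 fold change of 3.89, and the difference from R6/2 mice was -2.24 (SE 0.337, adjusted p = 0.00942, edgeR). The R6/2 HS mice, at 50.003 and 47.7 CPM, were below both wild type HS mice. For Bag3 wild type mice went from 214 and 278 to 1074 and 1178 CPM (log2 2.19), a difference of -1.70 (SE 0.241, adjusted p = 0.00942). For Dnaja1 they went from 4.45 and 4.78 to 29.1 and 34.3 CPM, a difference of -1.79 (SE 0.253, adjusted p = 0.00942). For Dnajb1 they went from 11.2 and 8.17 to 25.6 and 61.9 CPM, a difference of -2.55 (SE 0.432, adjusted p = 0.0269). R6/2 HS mice were below both wild type HS mice in each of these genes.

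The HSP70 pair had the largest folds of the 6 called genes in R6/2 muscle and larger fitted folds in wild type. Hspa1b stood at 853 and 858 CPM in wild type HS mice and 1.84 and 4.89 CPM in their controls (log2 7.97), and the difference of the responses was -3.58 (SE 0.667, adjusted p = 0.0595). For Hspa1a wild type HS mice stood at 961 and 1063 CPM, and the difference was -2.96 (SE 0.714, adjusted p = 0.278). The difference of this pair did not pass the test. For Ctla2a, Tinagl1 and Gda the wild type log2 fold changes were 3.26, 1.75 and 0.93, and the differences of -0.91 (SE 0.383), -0.34 (SE 0.325) and 0.31 (SE 0.293) had an adjusted p of 0.989 each. By list, the median log2 fold change in wild type and R6/2 mice was 0.46 and 0.33 for HSP70s, 0.58 and 0.18 for HSP90 and co-chaperones, 0.57 and 0.02 for the DNAJ genes and 0.55 and -0.05 for small HSPs and BAG factors. It was 1.78 and 0.92 for glucocorticoid receptor targets, of which none was called in the test of the difference.

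**Figure D5:**
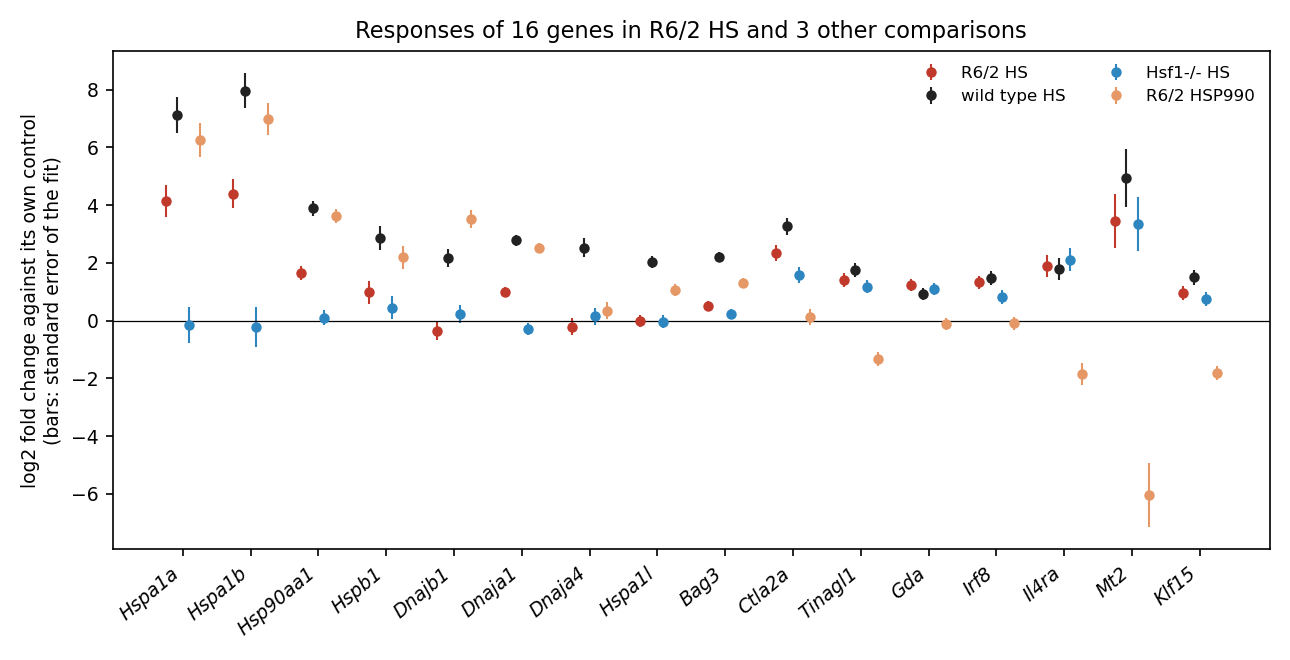
Log2 fold change against the matching control group (vertical axis, bars are the SE of the fit) of 16 named genes (horizontal axis) after HS in R6/2, wild type and Hsf1-/- mice and after HSP990 in R6/2 mice. After HS, Hsp90aa1 (1.65 in R6/2, 3.89 in wild type, 0.10 in Hsf1-/-) differed more between genotypes than Tinagl1 (1.40, 1.75 and 1.18), in the same order.

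In Hsf1-/- mice the 3 chaperone genes called in R6/2 mice did not pass the test after HS. Hspa1b stood at 1.21 and 0.914 CPM in HS and 1.27 and 1.18 CPM in control mice (log2 -0.21), and Hsp90aa1 at 10.0 and 8.07 against 8.20 and 8.65 CPM (log2 0.10). Ctla2a, Tinagl1 and Gda had log2 fold changes of 1.58, 1.18 and 1.09 there (adjusted p of 0.0512, 0.055 and 0.0542, edgeR), with all HS mice above the control mice. The test of the difference between R6/2 and Hsf1-/- mice called 0 genes (0%) with edgeR, with 500 genes at an unadjusted p below 0.05, while DESeq2 called 5 on all libraries and 6 on the libraries compared. The largest such differences among named genes, 4.60 (SE 0.847) for Hspa1b and 4.32 (SE 0.809) for Hspa1a, had an adjusted p of 0.412 each, and these mice also differed in age. Medians for glucocorticoid receptor targets were 0.92 in R6/2 and 0.76 in Hsf1-/- mice.

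HSP990 in R6/2 mice, given to other mice with their own vehicle controls, was set beside HS to compare 2 treatments that act on chaperones in the same genotype. The test of HS minus HSP990 called 224 genes (1.63%), 183 with the higher and 41 with the lower fold change after HS. A lower fold change after HS was called for 2 of 14 HSP70, 5 of 18 HSP90 and co-chaperone and 2 of 12 DNAJ genes. In the HSP90 and co-chaperone list 1 gene was called with the higher fold change after HS. Among the genes called lower, Hsp90aa1 had log2 fold changes of 1.65 after HS and 3.62 after HSP990 (difference -1.97, SE 0.332, adjusted p = 0.00438, edgeR). Dnaja1 had 0.99 and 2.51 (difference -1.51, adjusted p = 0.00387) and Dnajb1 -0.37 and 3.52 (difference -3.89, adjusted p = 0.000638). Hspa1b stood at 739 and 932 CPM after HSP990 and 8.46 and 4.78 CPM after vehicle (difference -2.59, adjusted p = 0.0511), so its R6/2 response to HSP990 was numerically larger than that to HS, and the difference did not pass the test.

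Ctla2a, Tinagl1 and Gda, the called genes that are not chaperone genes, had the higher fold change after HS. For Tinagl1 R6/2 mice went from 48.0 and 73.5 CPM with vehicle to 27.3 and 20.8 CPM with HSP990, a log2 fold change of -1.34, and the difference from HS was 2.74 (SE 0.331, adjusted p = 0.00102, edgeR). Ctla2a had a log2 fold change of 0.13 after HSP990 (difference 2.21, adjusted p = 0.00511) and Gda one of -0.12 (difference 1.36, adjusted p = 0.0215). Of the 23 glucocorticoid receptor targets 15 were called with the higher fold change after HS and 0 with the lower, beside 183 and 41 of all genes, and their median was 0.92 after HS and -1.64 after HSP990. Mt2 stood at 10.3 and 105 CPM with vehicle and 0.413 and 1.29 CPM with HSP990, so the 2 vehicle mice differed widely (difference 9.48, SE 1.45, adjusted p = 0.00262). Klf15 stood at 153 and 215 CPM with vehicle and 61.2 and 43.0 CPM with HSP990 (difference 2.76, adjusted p = 0.00102).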

How the data were processed

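RNA of quadriceps femoris muscle from 24 mice was sequenced as strand-specific paired-end libraries, 2 mice in each of 12 groups. The authors mapped reads to mm9 with Bowtie and deposited raw counts per gene, 1 column per mouse, without normalization. The counting program and annotation are not given in the sources used here. Library totals ran from 22450177 to 46599238 counts, and counting error was small beside the spread between mice. Of 18669 genes listed by number, 18594 matched a symbol and 18312 an mm9 gene span.

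In R 4.3.3, TMM scaling and the quasi-likelihood test of edgeR 4.0.16 (with limma 3.58.1) were applied to all genes reaching 2 counts in 10 or more libraries. The model had 1 mean per group (12 groups, residual degrees of freedom 12), and p-values were adjusted by Benjamini-Hochberg within each comparison, with a threshold of 0.05. Differences between responses were tested as interactions. The procedure was run on simulated data with 200 changed genes. Those data were drawn without the GC trend seen in HS replicate 1, so the run does not show how that trend affects the calls. Promoters came from RefSeq (GRCm38.p6), and near-identical copies of transcripts (divergence up to 0.02, covering 50% or more of the transcript) were located with minimap2 2.31-r1302. GC content was known for 13496 of the genes tested (98.1%).

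The members, the 36 pathway lists and the 13 lists of cell type markers were chosen with earlier results of these data known. Named were the qPCR panel and housekeeping genes, every called gene, the 12 genes with the smallest p in each direction (mean of at least 1 CPM, no overlap between groups), up to 4 members of each list with the smallest p, any member of the short chaperone families, and up to 10 genes for the fit without HS replicate 2. The alternatives were RLE and upper-quartile scaling, library size only, no filter, filterByExpr, thinned counts, fewer libraries, a replicate block, DESeq2 1.42.0 and leaving out each mouse. The GC correction and the crossed block were chosen after seeing the data.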

Additional observations from a re-analysis of the deposited data

Results flagged for a closer look

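The HS response of 10 genes differed between R6/2 and wild type mice by the interaction test (edgeR, adjusted p of 0.00942 unless given), with a lower fold change in R6/2 mice each time. Hsp90aa1 differed by -2.24 on the log2 scale (1.65 in R6/2 and 3.89 in wild type mice). Dnaja1 differed by -1.79 (0.99 and 2.78) and Bag3 by -1.70 (0.49 and 2.19). Hspa1l, an HSP70 gene next to Hspa1a, differed by -2.03 (-0.02 and 2.02). Dnaja4 differed by -2.74 (-0.21 and 2.53, adjusted p = 0.012) and Dnajb1 by -2.55 (-0.37 and 2.18, adjusted p = 0.0269). Ankrd34a differed by -2.80 (-1.25 and 1.55). Outside the naming rule, and named after their values were seen, Hspd1, the mitochondrial chaperonin HSP60, differed by -1.07 (0.17 and 1.24, adjusted p = 0.0171), Nle1, a factor of ribosome assembly, by -2.01 (0.72 and 2.72) and Mboat7, a phospholipid acyltransferase, by -1.60 (-0.06 and 1.54). Each group held 2 mice, so no mouse could be tested as an outlier within its group.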

How the results depend on the processing

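The 6 calls of the main comparison became 3 with library size only (which moved the median of all genes to -0.109), 13 with no filter, 10 with only the groups compared, 61 (56 and 5) with the HS experiment libraries only, 128 (107 higher and 21 lower) with DESeq2 on all libraries, 115 (93 and 22) with DESeq2 on the libraries compared, 3 with the GC correction without HS replicate 1 and 215 with it without HS replicate 2, and leaving out 1 mouse gave 3 to 500. The 10 differences from wild type became 0 with only the groups compared, 33 with either DESeq2 fit, 17 with the GC correction, 5 and 81 with it without HS replicate 1 or 2, and 0 to 90 without 1 mouse. The 0 differences from Hsf1-/- mice became 5 and 6 with DESeq2, 1 with the GC correction and replicate block, 2 with the GC correction without HS replicate 2, and 0 to 5 without 1 mouse. The 224 differences from HSP990 became 23 with only the groups compared, 439 and 338 with DESeq2, and 98 to 454 without 1 mouse. Where a setting uses fewer libraries it has fewer degrees of freedom, and otherwise the cause was not tested. The replicate numbers were not taken as pairs (correlation of same-numbered deviations -0.183). With a replicate block the main comparison gave 5 calls over all libraries and 6 within the libraries compared, and the differences from Hsf1-/- mice 1. A crossed block gave 10 calls. Uncalled genes near 0 changed sign: Ywhaz to -0.0065 (RLE), -0.11 (library size only), -0.036 (upper quartile), -0.0063 and -0.0060 (DESeq2), -0.019 (thinned), -0.082 (GC correction without HS replicate 1) and -0.027 to 0.031 without 1 mouse, Hsf1 to -0.059 (library size only), -0.016 (GC correction, with and without the replicate block), -0.089 (GC correction without HS replicate 2) and -0.046 to 0.14 without 1 mouse, and Canx ranged from -0.40 to 0.098 without 1 mouse. A gene that edgeR did not call is not shown to be unresponsive, since other fits of the same mice called up to 128 genes without leaving out a mouse.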

Other observations

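The summed level of neutrophil markers was higher in both HS mice than in both control mice. The 5 genes tested summed to 0.837 and 0.329 CPM in control and 8.04 and 2.10 CPM in HS mice. S100a9 stood at 0.110 and 0.0506 CPM in control and 4.24 and 0.977 CPM in HS mice (adjusted p = 0.246, edgeR), and Cxcr2 was at 0 in both control mice and at 0.389 and 0.201 CPM in HS mice (adjusted p = 0.222). For these 2 genes both HS mice were above both control mice, at low levels, and neither passed the edgeR test. DESeq2 called S100a9 on all libraries (adjusted p = 0.0139) and on the libraries compared (adjusted p = 2.4e-05), and S100a8 on the latter (adjusted p = 0.0257). Csf3r overlapped between the groups (0.485 and 0.228 CPM in control, 1.33 and 0.46 CPM in HS mice), and 1 of the 5 markers, Ngp, was lower. Red blood cell markers summed to 22.4 and 14.5 CPM in control and 49.0 and 10.7 CPM in HS mice, highest in the HS mouse with the most neutrophil transcripts, and their part in these values was not tested. Macrophage and leukocyte markers summed to 146 and 152 CPM in control and 184 and 111 CPM in HS mice, with a median log2 fold change of 0.02 over 14 genes (-0.41 without HS replicate 1 and 0.19 without HS replicate 2).

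Transcription factors of the muscle lineage were lower for 6 of 11, with a median of -0.50. At an unadjusted p below 0.05, 2 were lower (18.2%, against 3.38% of all genes). These were Six4 (46.5 and 42.2 CPM in control, 26.4 and 29.4 in HS mice, log2 -0.67, adjusted p = 0.44) and Myf6 (191 and 122 against 108 and 104 CPM, log2 -0.57, adjusted p = 0.553). That median was -0.05 without HS replicate 2, -0.21 without control replicate 1 and -0.30 without control replicate 2. Of 20 genes of glycolysis and glycogen 5 were higher at an unadjusted p below 0.05 (25%), with a median of 0.22 that was 0.066 without control replicate 1 and 0.39 without control replicate 2. Of 31 proteasome subunits none did so, with a median of 0.04 (-0.010 without control replicate 2, 0.11 without control replicate 1).

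Control replicate 1 stood above control replicate 2 for several stress genes, named after their values were seen. Atf3 stood at 177 and 23.9 CPM in the 2 control mice and 20.2 and 23.9 CPM in the HS mice. Ddit4 stood at 98.1 and 14.7 CPM in control and 320 and 273 CPM in HS mice, Tnfrsf12a at 99.7 and 21.8 against 13.0 and 34.5 CPM, and Fosl1 at 4.98 and 0.203 against 0.275 and 0.115 CPM.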
